A study of Mus musculus with 6 samples.

Results

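The genes described here encode the nuclear subunits of the mitochondrial respiratory chain and of the ATP synthase, read in neuroblastoma tumours after inhibition of the chemokine receptor CXCR4. They were chosen by gene symbol, with earlier results of these data known. Taken was every symbol of the NDUFA, NDUFAB, NDUFB, NDUFC, NDUFS and NDUFV series. The SDH genes, the UQCR genes with CYC1, the COX4 to COX8 genes and the ATP5 genes were taken too. This gave 82 of the 18417 genes measured, with 34 in complex I, 3 in complex II, 9 in complex III, 17 in complex IV and 19 in complex V. Of the 82, 77 are subunit genes and 5 are not textbook subunits: COX7A2L, a factor that joins complexes into supercomplexes, ATP5IF1, the inhibitor of the ATP synthase, ATP5MGL, a copy of a subunit gene, and the pseudogenes UQCRBP1 and ATP5F1EP2. NDUFS5, NDUFC2 and ATP5F1E share their probe sets with other symbols and were not used here, and SDHB, NDUFA4, NDUFA4L2 and the subunits encoded by mitochondrial DNA were not analysed here.

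Complex I takes electrons from NADH and complex II takes them from succinate. Both pass them to ubiquinone, complex III hands them on to cytochrome c and complex IV to oxygen. Complexes I, III and IV pump protons across the inner membrane, and complex V, the ATP synthase, makes ATP as protons flow back. Tumour cells can draw on this chain or on glycolysis for ATP, and several subunits have tissue-specific isoforms, one of which, COX4I2, is known as a target of the low-oxygen response.

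BL-8040 is a peptide inhibitor of CXCR4. The tumours grew from SK-N-BE(2), a MYCN-amplified human neuroblastoma cell line, injected into the adrenal gland of NSG mice, which lack T, B and natural killer cells. The 3 mice of the BL-8040 group received 400 µg under the skin on 14 consecutive days, starting 7 days after the cells, and 3 mice were controls, whose own handling the sources used here leave unstated. Both groups carried the same line in the same strain, and each tumour was read on 1 Human Gene 1.0 ST array. RNA came from whole tumours, so mouse transcripts could bind human probes, and fewer cells of a type and less RNA per cell cannot be told apart.

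The array medians lay between 5.35 and 5.42 (log2 signal). Of 11 neuroblastoma markers measured, all had a mean signal at or above percentile 49.2 of all genes, with MYCN at percentile 99.9. The 6 adrenal cortex markers lay at or below percentile 32.6. The 6 fibroblast markers had a median percentile of 94.5 (from 28.4 to 98.8 for LUM), the 7 endothelial markers one of 28.6 (from 12.1 to 96.3 for EMCN) and the 6 myeloid markers one of 44.3 (from 13.8 to 83.3 for PTPRC). BL-8040 replicate 3 stood apart from the other arrays, with -22.7 on the first principal component against a range from -0.743 to 10.1.

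BL-8040 tumours differed little from control tumours in these transcripts: the median difference of the 5 complexes lay between -0.03 log2 units in complex III and 0.0016 in complex V. Of the 82 genes, 39 (47.6%) were higher and 43 lower after BL-8040. Among all genes 41.5% were higher, and 45.8% of the genes with a mean signal of log2 6 or above. The median difference was -0.0026 log2 units, beside -0.02 over all genes and -0.01 over those at log2 6 or above. The lowest difference was that of NDUFB3 at -0.27 and the highest that of COX7B at 0.23, on the log2 scale. In 62 genes (75.6%) the difference was under 0.1 log2 units in size, as it was in 61.0% of all genes and in 65.2% of the genes with a mean signal of log2 6 or above, where 70 of the 82 belong.

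No gene of the 82 passed the test: with limma, 0 had a Benjamini-Hochberg adjusted p under 0.05 over all 18417 genes, and the lowest adjusted p was 0.644. The same holds for all genes, of which 0% were called. At an unadjusted p under 0.05, limma gave 4 genes, 4.88% of the 82 beside 7.72% of all genes and 5.84% of genes at log2 6 or above. NDUFC1 and NDUFS6 were the 2 higher ones, where 2.64% of all genes were higher at that threshold, and NDUFB3 and COX4I2 the 2 lower ones, where 5.08% of all genes were lower. In 10 genes, or 12.2%, the 3 treated values did not overlap with the 3 controls. The share was 14.0% of all genes and 14.7% of genes at log2 6 or above. Of these 10, 5 lay above the controls (4.93% of all genes) and 5 below (9.05% of all genes). Both totals, of 4 and of 10 genes, were below the background shares. The 5 genes above the controls, taken alone, were not below the 4.93% of all genes. For a single gene the smallest exact permutation p of 3 against 3 arrays is 0.1.

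The precision was high enough to bound most differences. The median half-width of the 95% interval was 0.179 log2 units among the 82 and 0.197 among all genes. In 67 of the 82 (81.7%) the whole interval lay within 0.32 log2 units of 0, as in 64.0% of all genes and 72.6% of those at log2 6 or above. Within 1.5-fold lay 81 of the 82. The exception was COX7B, a complex IV subunit, whose interval ran from -0.24 to 0.71.

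**Figure D1:**
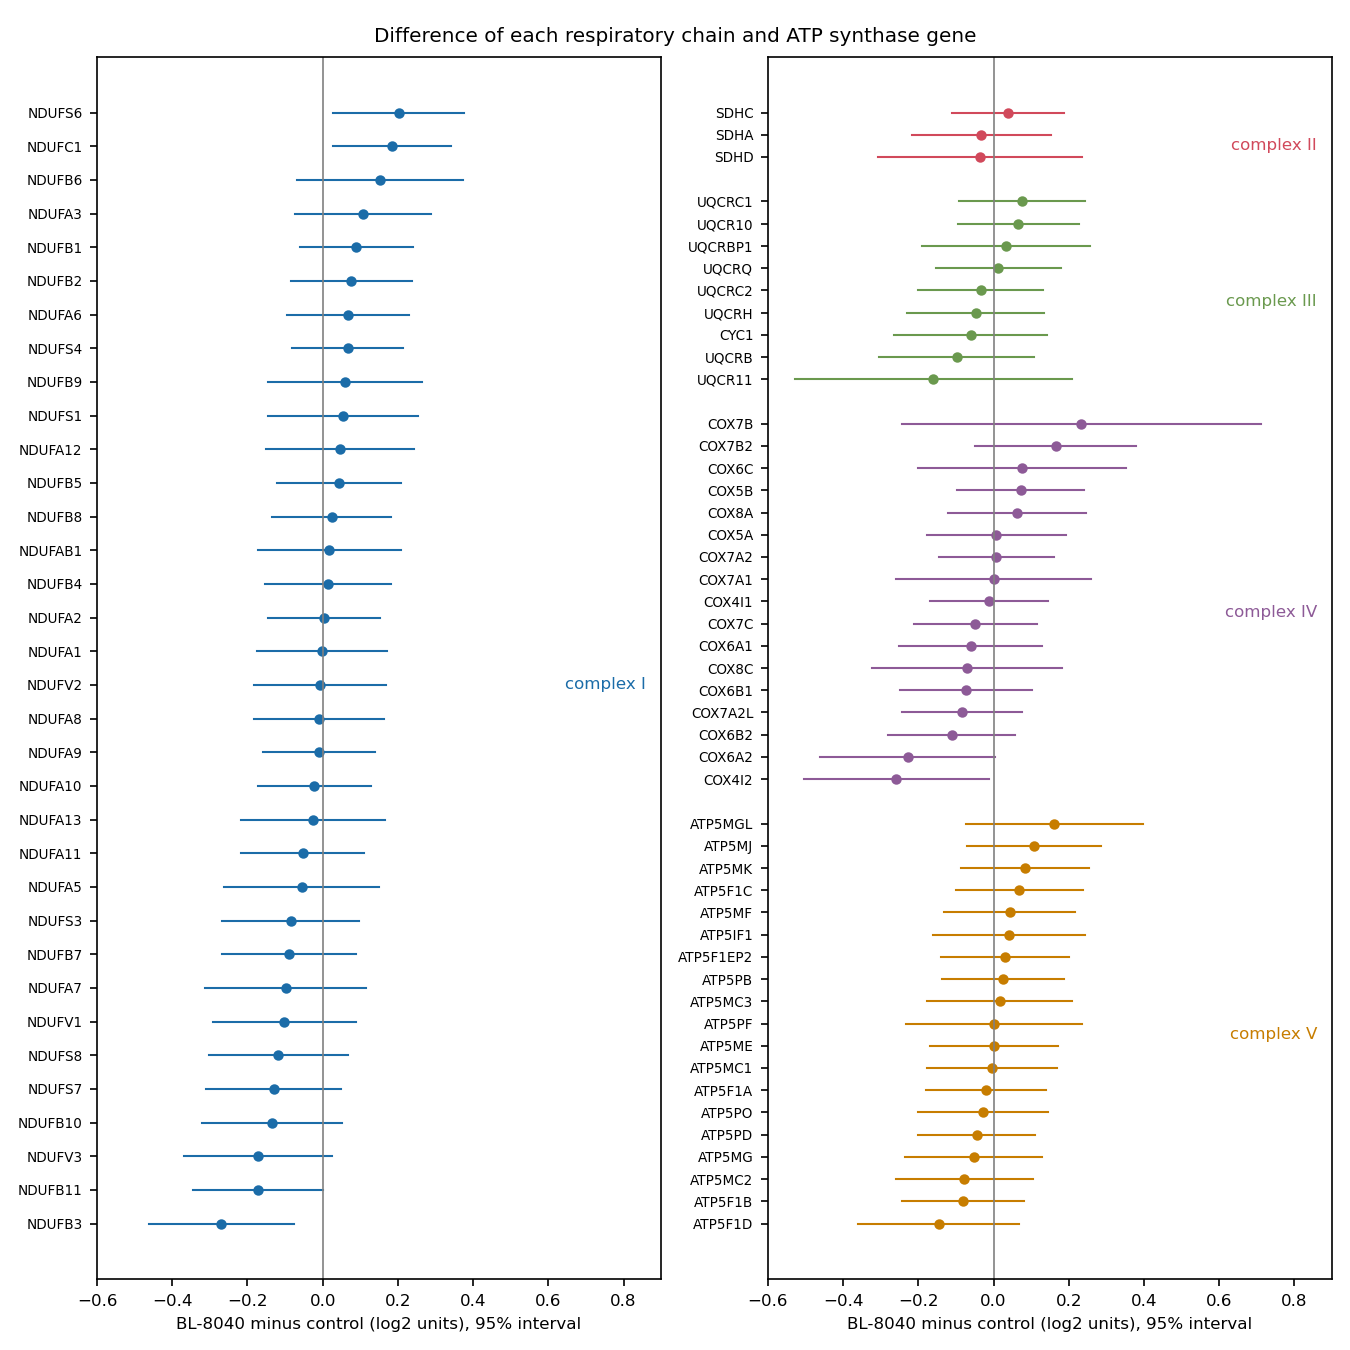
Difference between BL-8040 and control tumours (log2 units, x axis) of each of the 82 genes, with the limma 95% interval as a line, complex I in the left panel and complexes II to V in the right panel. Points scatter on both sides of 0 in each complex, and the intervals of NDUFS6, NDUFC1, NDUFB3 and COX4I2 leave out 0 before any adjustment.

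Complex I, the entry point for electrons from NADH, held 7 of the 10 genes whose groups did not overlap, 4 higher and 3 lower. That is 20.6% of its 34 genes, beside 14.0% of all genes and 14.7% of genes at log2 6 or above. These 34 genes were split into 16 higher and 18 lower, with a median difference of -0.0041. NDUFC1, a small membrane subunit, measured 7.30, 7.32 and 7.25 in BL-8040 tumours, against 7.16, 7.10 and 7.06 in controls (log2). All treated arrays lay above all controls, at means of 7.29 ± 0.04 in BL-8040 tumours and 7.11 ± 0.05 in controls (SD, n = 3 each). The NDUFC1 level was 1.14-fold that of controls, a difference of 0.18 ± 0.07 (SE) with a limma adjusted p of 0.644.

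NDUFS6, an accessory subunit that binds zinc, measured 7.32, 7.37 and 7.47 after BL-8040, against 7.26, 7.11 and 7.19 in controls. Here too no treated value fell among the controls, and the level was 1.15-fold (difference 0.20 ± 0.08 SE, limma adjusted p = 0.644). NDUFB1 measured 6.36, 6.41 and 6.40 in BL-8040 tumours, against 6.31, 6.32 and 6.27 in controls, a 1.06-fold level in which both groups were narrow. NDUFS4, an accessory subunit whose loss causes Leigh syndrome, was narrower still, at 7.98, 7.97 and 7.96 in BL-8040 tumours and 7.92, 7.88 and 7.91 in controls. Its difference was 0.07 log2 units, so its groups were separate but near each other.

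On the lower side stood NDUFB3, a membrane-arm subunit, at 4.74, 4.93 and 4.93 in BL-8040 tumours, against 5.08, 5.24 and 5.09 in controls. All treated values lay below all controls. Its level was 0.829 times that of controls (limma adjusted p = 0.644), at percentile 33.5 of signal, and it had the smallest unadjusted p of the 82 genes. NDUFB11, an X-linked subunit of the same arm, measured 10.02, 9.88 and 9.84 in BL-8040 tumours, against 10.04, 10.11 and 10.11 in controls, or 0.888 times the control level. Its treated and control ranges were close to touching. NDUFV3, an accessory subunit of the NADH-binding module, measured 7.95, 7.95 and 7.75 in BL-8040 tumours, against 8.05, 7.96 and 8.15 in controls, also 0.888 times. BL-8040 replicate 3 gave the lowest NDUFV3 value, and leaving it out moved the difference to -0.10, against -0.17 with all arrays.

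**Figure D2:**
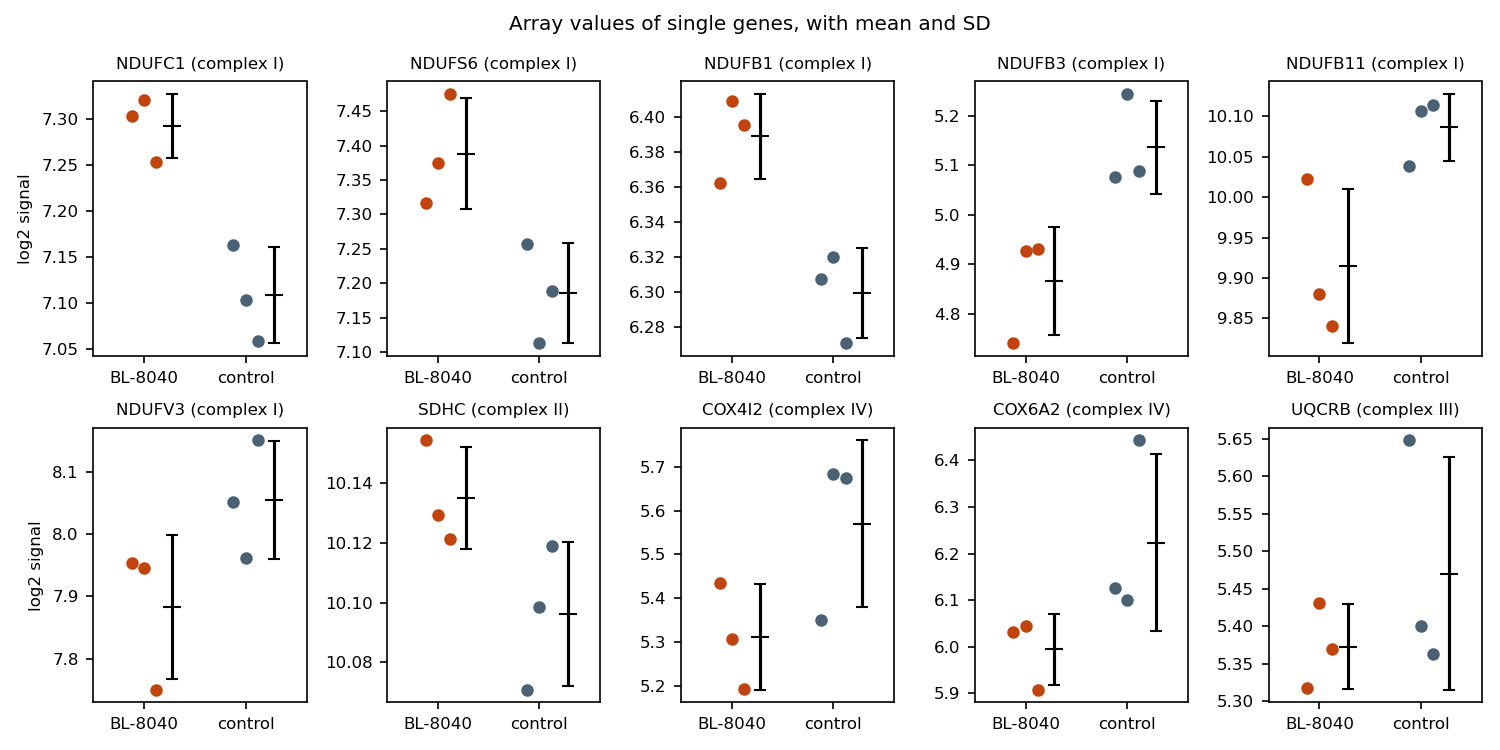
Log2 signal (y axis, a range of its own in each panel) of 10 genes in the 3 BL-8040 and the 3 control tumours, 1 point per array, with the group mean and SD beside the points. NDUFC1, NDUFS6, NDUFB1 and SDHC show all treated points above the controls, NDUFB3, NDUFB11, NDUFV3 and COX6A2 all below, and COX4I2 and UQCRB overlap.

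Of the 6 nuclear subunits of the catalytic core measured, most of which carry the flavin or iron-sulfur clusters, 5 were lower and 1 higher. Their median difference was -0.09, beside -0.02 over all genes and -0.01 over genes at log2 6 or above. NDUFS7, which holds the last iron-sulfur cluster before ubiquinone, differed by -0.13 ± 0.08 (SE), NDUFS8 by -0.12, NDUFV1, the flavin-binding subunit, by -0.10 and NDUFS3 by -0.09. NDUFV2 stood at -0.0065 and NDUFS1 at 0.05. None of the 6 reached an unadjusted p under 0.05 and none had separate groups. With each gene set against its own average, the median of the 6 was -0.15 in BL-8040 replicate 3 and 0.04 and 0.0035 in BL-8040 replicates 1 and 2, against 0.07, 0.06 and -0.0089 in controls. Without BL-8040 replicate 3 their median difference was -0.03, as was the difference of NDUFV1.

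Among the supernumerary subunits, of 11 NDUFB genes 7 were higher and 4 lower, and of 12 numbered NDUFA genes 4 were higher and 8 lower, with medians of 0.02 and -0.0096. NDUFA9, a subunit near the ubiquinone site, was almost level across mice: 9.25, 9.28 and 9.24 in BL-8040 tumours and 9.27, 9.27 and 9.26 in controls. NDUFA2 and NDUFA1 differed by 0.0042 and -0.0016 log2 units. NDUFAB1, the mitochondrial acyl carrier protein, differed by 0.02.

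Complex II, which is also the succinate dehydrogenase of the tricarboxylic acid cycle and is encoded in the nucleus alone, was represented by 3 genes. SDHA, the flavoprotein, measured 10.02, 9.96 and 9.79 after BL-8040, against 9.96, 9.99 and 9.92 in controls. The treated values spanned the control values, and the difference was -0.03 ± 0.08 (SE). SDHC, a membrane anchor, measured 10.15, 10.13 and 10.12 in BL-8040 tumours, against 10.07, 10.10 and 10.12 in controls, which put all treated arrays above the controls before rounding, at a difference of 0.04. SDHD, the other anchor, measured 9.12, 9.10 and 8.78 in BL-8040 tumours, against 9.22, 9.01 and 8.87 in controls, with both groups overlapping widely. The SDHC and SDHD probe sets with a second reading disagreed with it from array to array: Pearson's r over the 6 arrays was -0.302 for the pair of SDHC probe sets and 0.0857 for that of SDHD, given as a description. The second, dimmer probe set differed by 0.11 for SDHC and by -0.11 for SDHD, each in the direction of the first.

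Complex III, the cytochrome bc1 complex, had no gene with separate groups and no gene at an unadjusted p under 0.05. Of its 9 genes 4 were higher and 5 lower, with a median difference of -0.03. UQCRB, a ubiquinone-binding subunit, had the smallest p of the complex (limma adjusted p = 0.775) and measured 5.32, 5.43 and 5.37 after BL-8040, against 5.65, 5.40 and 5.36 in controls. Its difference of -0.10 rested on control replicate 1, without which it was -0.0087. The core proteins UQCRC1 and UQCRC2 differed by 0.08 and -0.03, and CYC1, the heme-bearing cytochrome c1, by -0.06. UQCR11, a small subunit, measured 7.74, 7.71 and 7.82 in BL-8040 tumours and 8.13, 8.13 and 7.48 in controls. The treated UQCR11 values lay inside the control range, and the difference of -0.16 became -0.38 without control replicate 3 and -0.05 without either of the other controls.

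Complex IV, cytochrome c oxidase, has ubiquitous subunits and isoforms made in few tissues. Among its 17 genes 7 were higher and 10 lower, with a median difference of -0.01. Of the 6 tissue isoform genes, 5 were lower and 1 higher (median -0.09), and of the 6 ubiquitous counterparts 3 were higher and 3 lower (median -0.0020). The 5 lower tissue isoforms included COX8C at -0.07 and COX7A1 at -0.00014, which was in effect level. Genes with a mean signal under log2 6, where 5 of the 6 tissue isoforms lay, had a median difference of -0.04, and of those 9057 genes 5704 were lower.

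COX4I2, the isoform known as a target of the low-oxygen response, measured 5.44, 5.31 and 5.19 after BL-8040, against 5.35, 5.68 and 5.68 in controls. The lowest control lay among the treated values. COX4I2 stood at 0.836 times the control level, a difference of -0.26 ± 0.11 (SE) with an adjusted p of 0.644 (limma). COX4I1, its ubiquitous counterpart, measured 8.116, 8.088 and 8.002 in BL-8040 tumours, against 8.079, 8.096 and 8.065 in controls for a difference of -0.01 whose 95% interval ran from -0.17 to 0.14.

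COX6A2, the isoform of heart and skeletal muscle, measured 6.03, 6.04 and 5.91 in BL-8040 tumours and 6.13, 6.10 and 6.44 in controls. All treated values lay below the controls, at 0.853 times their level (difference -0.23 ± 0.10 SE, limma adjusted p = 0.646). The control mean rested in part on control replicate 3, without which the COX6A2 difference was -0.12. Of the 7 skeletal muscle markers, 5 were lower and 2 higher (28.6%), where 41.5% of all genes and 37.0% of genes under log2 6 were higher. At an unadjusted limma p under 0.05 stood 1 of the 7, MB (14.3%), beside 7.72% of all genes and 9.66% of genes under log2 6. Taken as deviations from each gene's average, the muscle medians were -0.09, -0.07 and -0.02 after BL-8040 and 0.02, 0.04 and 0.07 in controls, and all 7 lay at or below percentile 66.2 of signal. The part of muscle RNA in the COX6A2 values was not tested. COX6A1, the ubiquitous counterpart, measured 10.87, 10.91 and 10.68 in BL-8040 tumours, against 10.94, 10.88 and 10.82 in controls, with overlap and a difference of -0.06.

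In the remaining isoform pairs the differences were smaller or overlapped. COX6B2, a testis isoform near the dim end of the array (percentile 6.39), measured 2.88, 2.73 and 2.84 in BL-8040 tumours, against 2.90, 2.89 and 2.99 in controls, separate groups that nearly met. COX6B1 measured 8.85, 8.87 and 8.67 in BL-8040 tumours, against 8.88, 8.84 and 8.88 in controls and differed by -0.07. COX7A1, the muscle form, measured 3.82, 3.83 and 3.81 in BL-8040 tumours, and controls spread on both sides at 3.56, 3.86 and 4.04. COX7A2 measured 8.02, 7.97 and 7.93 in BL-8040 tumours, against 7.98, 7.99 and 7.94 in controls, a difference of 0.0074.

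COX7B, a ubiquitous subunit, varied more than any other of the 82 genes within groups, at 6.59, 6.73 and 5.95 after BL-8040 and 6.21, 6.48 and 5.87 in controls. Its SD was 0.416 among treated and 0.307 among control tumours, where the median SD of the 82 genes was 0.0813 among treated and 0.0619 among control tumours. The difference of 0.23 became 0.47 without BL-8040 replicate 3, 0.08 without BL-8040 replicate 2 and 0.07 without control replicate 3. COX7B2, its dim isoform at percentile 8.86, measured 2.98, 3.19 and 3.33 in BL-8040 tumours, against 2.99, 2.96 and 3.05 in controls, with BL-8040 replicate 1 among the controls. The subunits COX5A, COX5B and COX8A differed by 0.0077, 0.07 and 0.06.

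Complex V, the ATP synthase, had 11 higher and 8 lower genes, a median difference of 0.0016 and no gene with separate groups. In the catalytic head, ATP5F1B, the catalytic beta subunit, measured 11.34, 11.34 and 11.22 in BL-8040 tumours and 11.40, 11.41 and 11.34 in controls, a difference of -0.08 with overlap at the control minimum. ATP5F1A, the alpha subunit, differed by -0.02, ATP5F1C, the central stalk, by 0.07 and ATP5F1D, the delta subunit, by -0.15. The 4 peripheral stalk genes lay between -0.05 and 0.03. Of 5 small membrane subunits 4 were higher and 1 lower, led by ATP5MJ at 0.11.

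The c subunits, which form the proton-driven rotor, are encoded by 3 genes whose mature proteins are the same. ATP5MC1 measured 10.38, 10.29 and 10.17 after BL-8040, against 10.29, 10.28 and 10.28 in controls. ATP5MC2 measured 8.89, 8.83 and 8.69 in BL-8040 tumours, against 8.84, 8.84 and 8.96 in controls. ATP5MC3 measured 4.99, 4.84 and 4.95 in BL-8040 tumours, against 4.77, 4.98 and 4.98 in controls. In each the groups overlapped, with differences of -0.0036, -0.08 and 0.02. ATP5MGL had the smallest p of the complex V genes (limma adjusted p = 0.695), at 5.04, 4.74 and 4.93 in BL-8040 tumours, against 4.87, 4.77 and 4.59 in controls, and the inhibitor ATP5IF1 differed by 0.04.

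**Figure D3:**
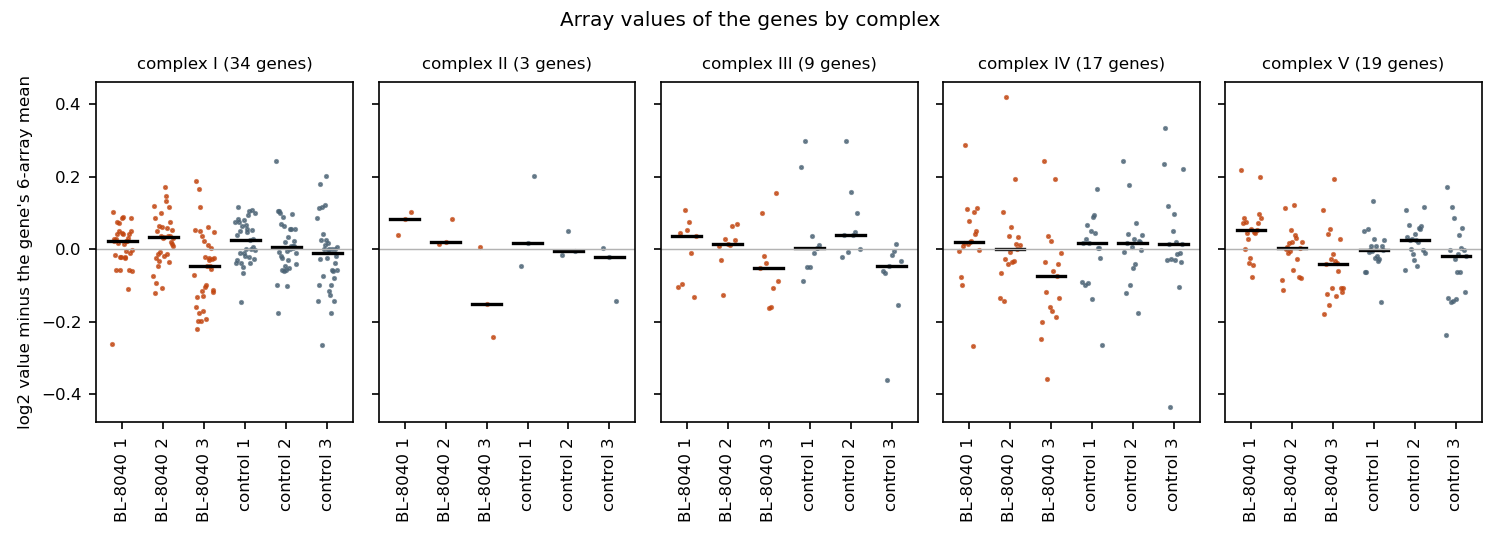
Log2 value of each gene minus its mean over the 6 arrays (y axis), 1 point per gene and 1 column per array, in a panel per complex, with the median of the array as a bar. The bar of BL-8040 replicate 3 is the lowest in all 5 panels, and the bars of the other 5 arrays lie between -0.04 and 0.08.

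Differences between mice were larger than the difference between groups. Over the 82 genes the median deviation from a gene's 6-array mean was 0.03, 0.01 and -0.05 in BL-8040 replicates 1, 2 and 3, against 0.0084, 0.02 and -0.02 in controls. BL-8040 replicate 3 had the lowest median in all 5 complexes, from -0.04 in complex V to -0.15 in complex II. It held the lowest of the 6 values in 39 of the 82 genes (47.6%), whereas the same array was lowest in 30.5% of all genes and in 38.1% of genes at log2 6 or above. BL-8040 replicates 1 and 2 held the highest value in 20 and 18 of the 82 genes (24.4% and 22.0%). The same arrays were highest in 12.7% and 13.6% of all genes, and in 15.0% and 14.7% of genes at log2 6 or above. The median deviation of BL-8040 replicate 1 lay above all controls, and that of BL-8040 replicate 2 lay among them. Without BL-8040 replicate 3 the median difference of the 82 genes was 0.02, and it was 0.02 in complex I, 0.05 in complex II, 0.01 in complex III, 0.0095 in complex IV and 0.05 in complex V.

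The same array stood apart in the tumour cell markers. All 11 neuroblastoma markers had their lowest value there, as did 30.5% of all genes and 38.1% of genes at log2 6 or above. After BL-8040, 10 of the 11 were lower and 1 higher (9.09%). Among all genes 41.5% were higher, and 45.8% of genes at log2 6 or above. The median difference of the markers was -0.24. It was still -0.14 without BL-8040 replicate 3, beside -0.01 over all genes. The median deviation of the markers was -0.04, 0.11 and -0.41 after BL-8040 and 0.13, 0.24 and -0.0088 in controls. For the 6 fibroblast markers it was 0.08, -0.14 and 0.20 after BL-8040, against -0.12, -0.00059 and -0.05 in controls. The part of cell composition in the low values of BL-8040 replicate 3 was not tested.

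**Figure D4:**
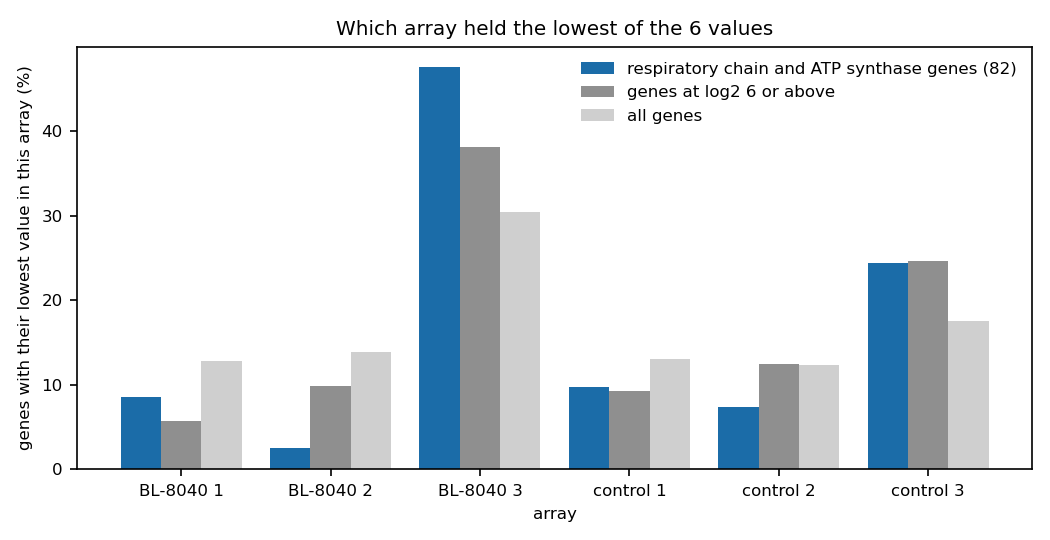
Share of genes (%, y axis) that had the lowest of their 6 values in each array, for the 82 respiratory chain and ATP synthase genes, for genes with a mean signal of log2 6 or above and for all genes. BL-8040 replicate 3 has the tallest bar of each kind, at 47.6%, 38.1% and 30.5%.

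Genes that build, feed or regulate the chain were read beside the subunits. In none of the 6 lists read did a gene reach an unadjusted limma p under 0.05, where 7.72% of all genes did, and 0 were called after adjustment. Of 15 complex I assembly genes 7 were higher and 8 lower, with a median difference of -0.0087. NDUFAF5, a methyltransferase of early assembly, measured 5.10, 5.12 and 5.19 in BL-8040 tumours, above all controls at 5.04, 4.81 and 5.01. ECSIT, an assembly factor that also acts in innate immune signalling, measured 7.37, 7.41 and 7.14 in BL-8040 tumours, against 7.45, 7.55 and 7.51 in controls, below all controls, with a difference of -0.19 that was -0.11 without BL-8040 replicate 3. The 16 complex IV assembly genes had 6 higher and 10 lower members (median -0.01), with COX14 at 0.14 and SURF1, whose loss causes Leigh syndrome, at -0.17. The 12 assembly genes of complexes II, III and V were split into 6 and 6.

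Of 15 genes of the tricarboxylic acid cycle and pyruvate entry, 4 were higher and 11 lower, where 41.5% of all genes were higher. Their median difference was -0.05, beside -0.02 over all genes. BL-8040 replicate 3 held the lowest value in 9 of the 15, and in 30.5% of all genes. Without that array their median difference was -0.02, beside -0.01 over all genes. CS, the citrate synthase, measured 9.35, 9.31 and 9.35 after BL-8040, against 9.52, 9.51 and 9.40 in controls. The treated values were tight and below all controls, at a difference of -0.14 ± 0.07 (SE, limma adjusted p = 0.652). SUCLA2, a subunit of succinyl-CoA synthetase, measured 7.35, 7.37 and 7.31 in BL-8040 tumours, against 7.26, 7.29 and 7.07 in controls, above all controls. The 15 regulators of these genes had 8 higher and 7 lower members (median 0.01). GABPA, a transcription factor of many subunit genes, measured 7.52, 7.57 and 7.84 in BL-8040 tumours, against 7.48, 7.45 and 7.36 in controls, with a difference of 0.21 that was 0.11 without BL-8040 replicate 3. CYCS, the cytochrome c gene, differed by 0.14 and the ADP/ATP carrier gene SLC25A4 by -0.09.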

How the data were processed

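The authors deposited log2 values of the 6 arrays in 1 table; that they are log2 is inferred from their range. Per the submitters' processing notes Partek 6.6 was used; background correction, normalization and probe summarization are unstated in the sources used here, as are detection calls. Gene names came from the platform annotation. Probe sets with 1 symbol were kept, and of several the one with the highest mean over the 6 arrays, which left 18417 genes.

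BL-8040 and control, 3 arrays each, were compared by the two-sided moderated test of limma 3.58.1 (R 4.3.3) with Benjamini-Hochberg adjustment over the 18417 genes, checked on simulated data. The number of arrays limits the precision. Folds are antilogs of the difference BL-8040 minus control. Members and lists were chosen with earlier results of these data known. Array values are given for the members with the smallest p among those with separate groups in each complex (at most 3 per direction; where there are none, the member with the smallest p), for the SDH genes, isoform pairs and c-subunit genes, and up to 2 genes per direction of any other list. NDUFS4, NDUFA9, UQCR11 and ATP5F1B were added with their values in view. Probe sets may also read near-identical copies or pseudogenes of these genes, and such signal cannot be told apart.

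Alternatives covered dim genes, probe sets, normalization, weighting of arrays, variance moderation, a block for the replicate number, the member list, the threshold and each array left out.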

Additional observations from a re-analysis of the deposited data

How the results depend on the processing

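The count of genes called among the 82 was 0 under every alternative run, at an adjusted p under 0.1 too. The count of lower genes at an unadjusted limma p under 0.05 was 2, but 1 with array weights, 3 with median centring, 4 with quantile normalization and 4 with a variance trend and robust moderation. With genes under log2 6 or under the median signal left out it stayed 2 in each case. Those 2 were NDUFB11 and COX6A2, since NDUFB3 and COX4I2 were among the genes left out. Same-numbered arrays of the groups correlated in their deviations at -0.0369, 0.0169 and 0.0768, so the numbers were not taken as pairs; with the replicate number as a block 3 higher genes and 1 lower gene reached that threshold and 0 were called. With 1 array left out there were 0 to 2 higher genes (0 without control replicate 2 or 3) and 1 to 3 lower ones. Genes with separate groups numbered 17 to 23 in place of 10, since fewer arrays separate more easily. With all 6 arrays that number was 9 with the mean of a gene's probe sets, 8 with median centring and 12 with quantile normalization. With 1 array left out the median difference of complex III ranged from -0.066 to 0.010 and of complex V from -0.038 to 0.049. Several differences near 0 turned sign. With array weights SDHA went to 0.0073, SDHD to 0.029, COX4I1 to 0.0081, COX7A1 to 0.0042 and ATP5MC1 to 0.035. With 1 array left out the ranges were -0.082 to 0.035 for SDHA, -0.117 to 0.074 for SDHD, -0.035 to 0.022 for COX4I1, -0.107 to 0.0095 for COX6A1, -0.131 to 0.111 for COX7A1, -0.016 to 0.029 for COX7A2, -0.053 to 0.049 for ATP5MC1 and -0.053 to 0.059 for ATP5MC3; the cause was not tested.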

Other observations

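Of the 82 genes, 7 had 2 probe sets with a symbol of their own. The COX6A1 and NDUFV2 pairs followed each other across the 6 arrays (Pearson's r 0.994 and 0.981), and the NDUFB4 pair held identical values. The ATP5MK pair had r of 0.113, with differences of 0.08 and -0.04, and the NDUFS4 pair had r of 0.420, with differences of 0.07 in the brighter and 0.21 in the dimmer probe set. These coefficients describe 6 arrays of the same tumours and carry no test.

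After COX7B, the widest spread within groups was that of UQCR11, with an SD of 0.0549 among treated and 0.381 among control tumours, and of COX6C, with 0.198 among treated and 0.179 among control tumours. COX6C measured 8.61, 8.70 and 8.33 after BL-8040 and 8.68, 8.34 and 8.41 in controls. These genes were chosen with their values in view.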
